A study of Mus musculus with 59 samples.

Results

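The genes examined here encode the subunits and assembly factors of respiratory complex I, taken as every gene of the deposited table whose symbol starts with Nduf. There were 41 such genes among 19613, with no filter on low values, and 40 of them, called members here, are described. They were measured with exon-level Affymetrix microarrays in embryoid bodies containing spinal motor neurons, derived from HBG3 HB9 embryonic stem cells, 24 h after exposure to mouse serum. Serum came from hemizygous carriers of a mutant human SOD1 transgene, a mouse model of amyotrophic lateral sclerosis (29 arrays), or from non-carrier littermates (30 arrays). The mice were 9 weeks of age for 53 arrays and 10 weeks for 6 arrays, typically had no physical symptoms yet and carried a mixed C57BL/6 and SJL background. The mutation was in the serum donors only; both groups of arrays held the same kind of cells, a single stem cell line. The embryoid bodies were not dissociated or sorted, so other cell types were present, and fewer cells of a type and less RNA per cell cannot be told apart.

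Complex I (NADH:ubiquinone oxidoreductase) is the first enzyme of the mitochondrial respiratory chain. It takes electrons from NADH in the N module, passes them through iron-sulfur clusters to ubiquinone in the Q module, and couples this to proton pumping by the membrane modules. The subunits of the proton-pumping core are encoded by mitochondrial DNA and carry other symbols, so the Nduf genes cover the nuclear part of the complex, and neurons, which rely heavily on oxidative phosphorylation, are among the cells most affected when it is defective.

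Since the labels give no batch, runs were read from the titles, in which 3 names and a sequence of array numbers occur. The numbered arrays were divided into 6 series, for 9 runs in all, each with both sera. Each series after the first begins where the numbers pass from carrier back to non-carrier arrays. Gaps in the numbers mark only some of these limits, so the limits are inferred. The named runs are motorneuron (7 arrays), HB9MNs (4) and 10-week (6). The numbered runs are here called run A (6 arrays), B (6), C (11), D (7), E (6) and F (6). Run C is larger than the other numbered runs. The paper describes smaller groups of assays, each with its own batch of motor neurons, so run C would hold more than 1 batch. The reported fit takes it as 1 block. Single arrays are given by run and by their order among the arrays of the same serum, so that carrier array D3 is the third carrier array of run D. Arrays had median intensities of 151 to 183 (carrier) and 153 to 177 (non-carrier). The mean Pearson's r of an array with the others of its run was between 0.979 and 0.996, and Grubbs' test called 2 arrays, non-carrier array C2 and carrier array E3. Of 7 motor neuron markers 6 were measured (mean log2 intensity per array 8.96 to 9.46 with carrier and 8.95 to 9.42 with non-carrier serum), of which Slc5a7 was higher with carrier serum. In the lists for progenitors, interneurons, pluripotent cells, astrocytes, red blood cells, muscle, endoderm and macrophages no measured marker passed the test. Only 1 of 3 progenitor markers (change -0.09) and 1 of 5 red blood cell markers were measured, so these lists say little. All values below are log2 intensities, and the change is carrier minus non-carrier serum with the run as a block (limma, two-sided, Benjamini-Hochberg adjustment over all genes, threshold 0.05). The paper counts its serum samples by mouse, and the assays of a group shared a batch of motor neurons. The labels do not say which arrays came from separate cultures or donors. The p-values thus measure the spread between these arrays, which may be technical in part.

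With carrier serum, 1 of the 40 members fell past the threshold, Ndufa6, and 0 rose. Across all genes, 1.65% fell and 0.683% rose by the same rule. At an unadjusted p of 0.05, 8 members were lower, against 8.68% of all genes, and 2 were higher (Ndufs4 and Ndufs7), against 12.0% of all genes. In sign, 29 members were lower and 11 higher, whereas among all genes 7629 were lower and 11984 higher. The median change was -0.03 over the members and 0.016 over all genes.

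**Figure D1:**
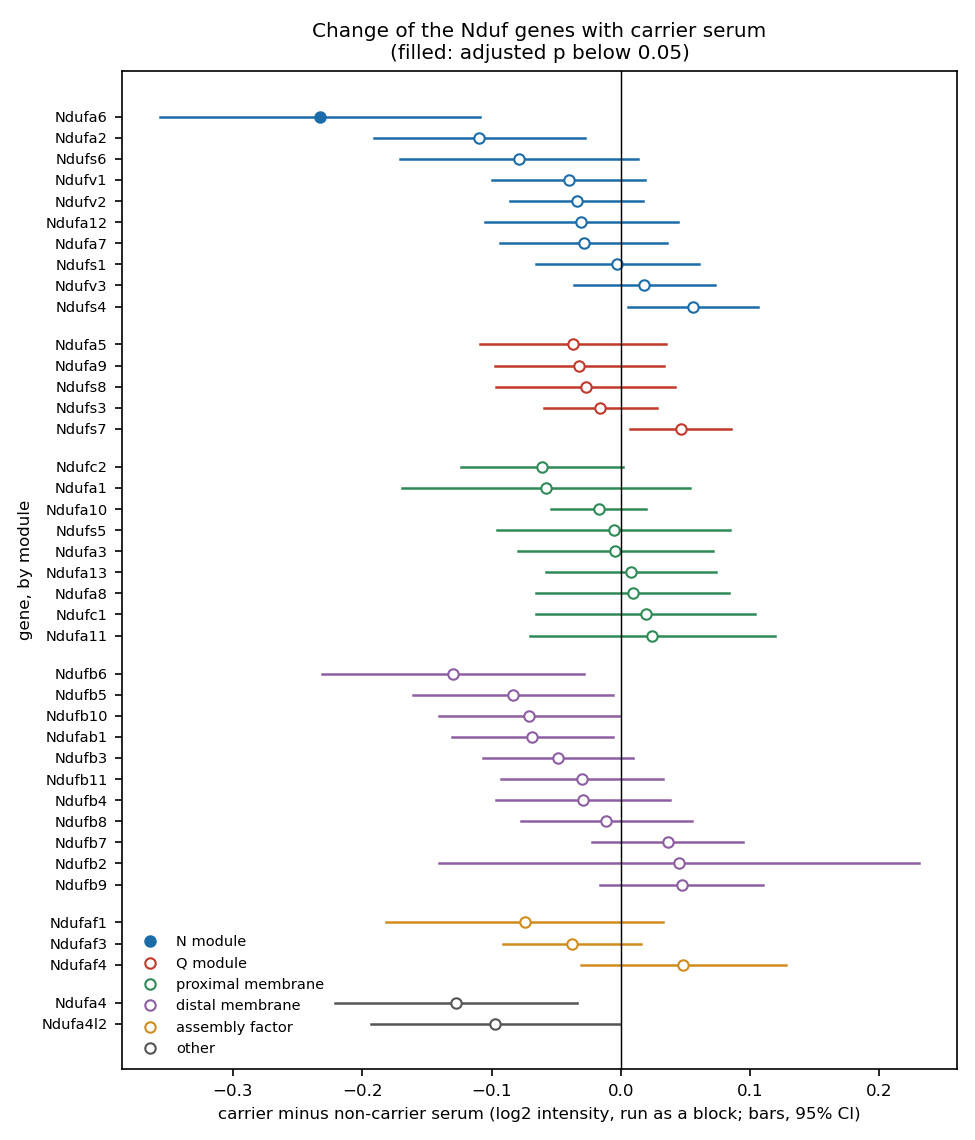
Change of each of 40 Nduf genes with carrier serum (x axis, log2 intensity, carrier minus non-carrier with the run as a block), grouped by module (y axis). Points are estimates, bars are 95% confidence intervals, and filled points passed an adjusted p of 0.05. Ndufa6 at -0.23 stands farthest to the left, and 29 of 40 points lie below 0.

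Grouped by module, lower values were spread over the complex. In the N module, which holds the NADH site, 8 of 10 genes were lower and 1 (Ndufa6) passed the test, with a median of -0.03. In the Q module, 4 of 5 were lower and none passed, with a median of -0.03. The proximal membrane module was nearly even, with 5 of 9 genes lower, none past the threshold and a median of -0.0044. In the distal membrane module 8 of 11 were lower, none past the threshold, with a median of -0.03. Of the 3 assembly factors measured, Ndufaf1, Ndufaf3 and Ndufaf4, none passed the test and 2 were lower. The remaining genes, Ndufa4 (now regarded as a subunit of cytochrome c oxidase, complex IV) and its hypoxia-inducible paralog Ndufa4l2, were both lower without passing the test.

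Ndufa6 is an accessory subunit of the LYR family, which sits at the joint of the peripheral and membrane arms and binds the mitochondrial acyl carrier protein Ndufab1. Its log2 intensity ran from 7.88 through a median of 8.88 to 9.43 with carrier serum (mean 8.83 ± 0.36 SD, n = 29) and from 8.65 through 9.06 to 9.50 with non-carrier serum (9.05 ± 0.18 SD, n = 30). The groups overlapped over most of their range, but the lowest carrier arrays had no counterpart among the non-carrier arrays. The change was -0.23 ± 0.062 (SE; 95% confidence interval -0.36 to -0.11; limma adjusted p = 0.0294), so the intensity fell by 14.9%. Ndufa6 was singled out because it was lower in every run, so this test is not independent of its choice. It had the 40th lowest change of all genes and 1.79 times the change of the next member. The mean change of the other 39 members was -0.03, from which Ndufa6 differed by -0.21.

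In run D, Ndufa6 was 9.05, 8.26 and 7.88 with carrier serum and 8.93, 9.24, 9.15 and 9.13 with non-carrier serum. Here 2 of 3 carrier arrays lay far below the other arrays and 1 lay among the non-carrier arrays. In run A, Ndufa6 was 8.25, 8.65 and 9.08 with carrier and 9.11, 8.88 and 8.94 with non-carrier serum, with 2 of 3 carrier arrays below the others. In run E, it was 8.83, 8.81 and 8.33 with carrier and 9.11, 9.04 and 9.05 with non-carrier serum, so that the groups did not overlap. In the 10-week run, the only one with older donors, Ndufa6 was 8.81, 8.93 and 8.89 with carrier and 9.25, 9.15 and 9.14 with non-carrier serum, again without overlap and with little spread. In run C, Ndufa6 was 9.39, 9.20, 9.43, 8.67, 8.88 and 9.08 with carrier serum and was 9.24, 9.05, 9.20, 9.06 and 9.06 with non-carrier serum, and the carrier arrays fell on both sides of the others. The groups failed to overlap in 2 of 9 runs. In run E every carrier array lay below every non-carrier array for 7 members and for 5.08% of all genes, and in the 10-week run for 5 members and 8.30% of all genes.

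The mean of Ndufa6 was lower with carrier serum in every run as defined here, a pattern that 1.11% of all genes showed and 1 of the 40 members. It no longer held when run C was parted by the order of the sample list, where the difference was 0.19 in the first part (3 carrier and 2 non-carrier arrays) and -0.23 in the second (3 and 3 arrays). With run C so parted in the fit, the change was -0.24 (limma adjusted p = 0.0176). The difference was -0.02 in run C, -0.06 in run F, -0.07 in motorneuron, -0.12 in HB9MNs, -0.18 in run B, -0.30 in the 10-week run, -0.32 in run A, -0.41 in run E and -0.72 in run D. It was the lowest of all members in 4 runs and held ranks 20 and 18 from the lowest in run C and run F. The 9 differences were not shown to differ from each other (limma interaction of serum and run, unadjusted p = 0.111, adjusted p = 0.711). Without carrier array D2 the change was -0.21 and no longer passed the threshold (adjusted p = 0.0534), and without run D, which holds that array, it was -0.17 (adjusted p = 0.154). The call was also lost without run A (limma adjusted p = 0.0678), run B (0.0640), run E (0.0796), run F (0.0541) or the 10-week run (0.105), with changes between -0.25 and -0.21, and was kept without motorneuron, HB9MNs or run C.

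**Figure D2:**
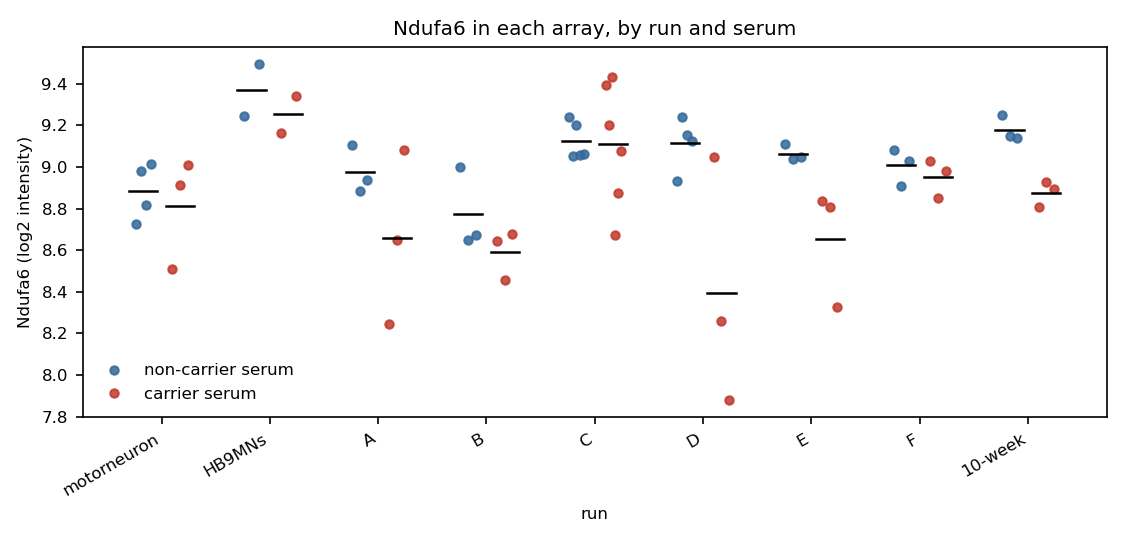
Log2 intensity of Ndufa6 (y axis) in each of the 59 arrays, by run (x axis) and serum. Points are arrays and black lines are group means. With run C taken whole, the mean with carrier serum is below that with non-carrier serum in each run. The gap is 0.72 at most, in run D, where 1 carrier array nevertheless lies among the non-carrier arrays.

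The spread of Ndufa6 also differed between the sera. After each run was centred on its mean, the SD was 0.285 with carrier and 0.144 with non-carrier serum. A wider spread with carrier serum was seen for 32 of the 40 members and for 58.9% of all genes, as a description without a test. The lowest arrays for Ndufa6 after centring, up to array A2 at -0.17, were all carrier arrays. They were led by array D3 at -0.93, array A1 at -0.57, array D2 at -0.54, array E3 at -0.53 and array C4 at -0.44. Array E3 had the lowest mean r with its run (0.979), while arrays D3, A1, D2 and C4 had values of 0.993 to 0.995. With the mean r of each array added to the fit, the change of Ndufa6 was -0.22 (limma adjusted p = 0.0362).

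Several other subunits were low in the same arrays. In array D3, Ndufb6 and Ndufb5 (accessory subunits of the distal membrane arm) were at -0.76 and -0.43 relative to the run mean, and Ndufa4 was at -0.68. In array A1, Ndufb6, Ndufb5 and Ndufa4 were at -0.47, -0.28 and -0.55, and in array C4 at -0.51, -0.21 and -0.47. These arrays were thus low for several members at once, and not for all. Array E3 was low more broadly, though Ndufs4 was at 0.14 there. Its mean over the members other than Ndufa6 was -0.25, against -0.11 in array D3 and -0.09 in array A1. In array D2, Ndufb6 was at 0.0077 and Ndufa4 at -0.03, though Ndufb5 was at -0.24. Ndufs4 (an accessory subunit that helps to complete the N module) and Ndufb9 (the other LYR subunit) were at 0.0024 and 0.06 in array D3 and at 0.02 and 0.02 in array A1.

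Over the 59 arrays centred by run, the members most like Ndufa6 were Ndufb5 (Pearson's r = 0.78, Spearman's rho = 0.73), Ndufb6 (r = 0.77, rho = 0.69), Ndufa4 (r = 0.72, rho = 0.61) and Ndufc2 (r = 0.71, rho = 0.58). Without arrays D3 and A1, which were farthest from the median of Ndufa6, r over 57 arrays was 0.70 for Ndufb5, 0.64 for Ndufb6, 0.56 for Ndufa4 and 0.63 for Ndufc2. The likeness was present with either serum; for Ndufb5, r was 0.84 over the carrier and 0.62 over the non-carrier arrays. For Ndufs4, whose serum change had the opposite sign, r was 0.09 over all arrays. It was 0.29 over the carrier and 0.30 over the non-carrier arrays. For Ndufb9, r was -0.12 over all arrays, -0.21 over the carrier and 0.33 over the non-carrier arrays. For Ndufab1, the binding partner, it was 0.53 over the carrier and 0.05 over the non-carrier arrays. Over all 59 arrays, the median r with Ndufa6 was 0.29 for the other members and -0.12 for all genes. These arrays share their runs and normalization, and no test was made.

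**Figure D3:**
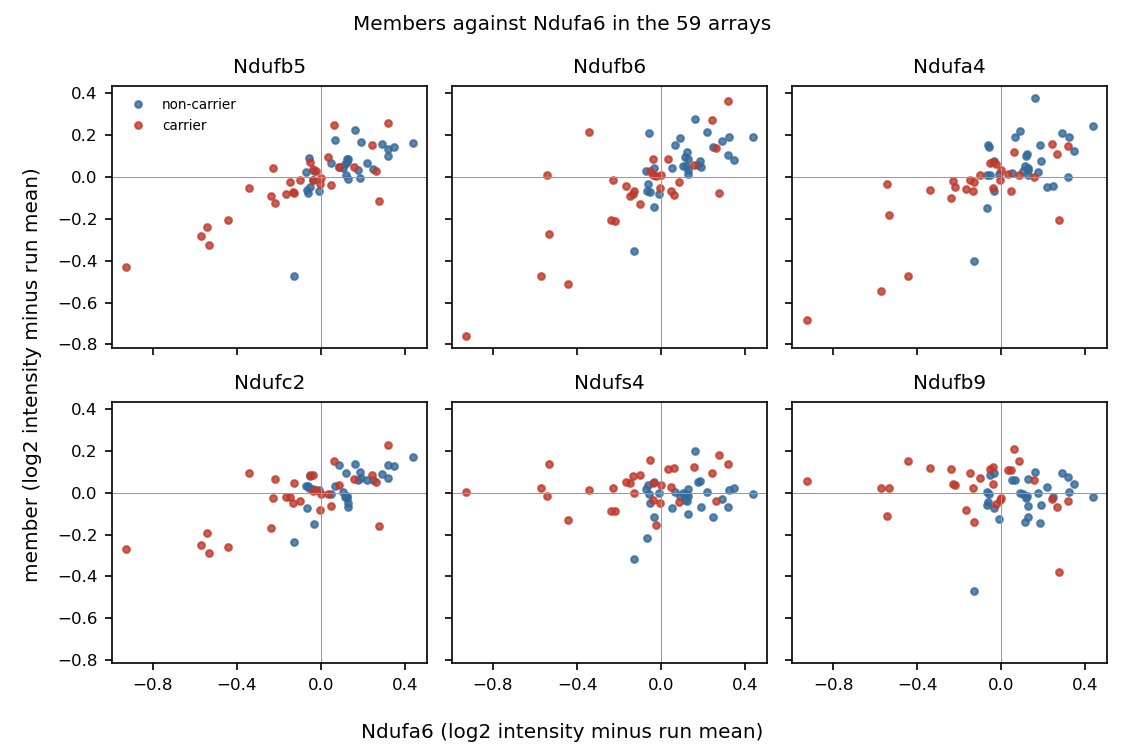
Log2 intensity minus the run mean for Ndufa6 (x axis) and 6 other members (y axes) in 59 arrays, coloured by serum. Of the 5 lowest arrays for Ndufa6, 4 are low for Ndufb5, Ndufb6 and Ndufa4 as well (array D3 at -0.76 for Ndufb6), while Ndufs4 and Ndufb9 lie between -0.13 and 0.15 in all 5.

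Among all genes, the 5 with the highest r to Ndufa6 were Stoml2, a protein of the inner mitochondrial membrane (r = 0.87), Rps20, of the small cytosolic ribosomal subunit (0.87), Uqcrc2, a core protein of complex III (0.84), Pigx, of glycosylphosphatidylinositol anchor synthesis (0.84), and Mrpl15, of the mitochondrial ribosome (0.83). Without arrays D3 and A1 the values were between 0.76 for Mrpl15 and 0.80 for Stoml2. With carrier serum, Stoml2 changed by -0.15 ± 0.041 (SE, limma adjusted p = 0.0361) and Mrpl15 by -0.12 ± 0.028 (adjusted p = 0.0105), both past the threshold. Rps20 (-0.12, adjusted p = 0.125), Uqcrc2 (-0.07, adjusted p = 0.104) and Pigx (-0.06, adjusted p = 0.227) were not past it. These 5 genes were picked by r to Ndufa6 with the serum difference left in the values. Their serum tests are therefore not independent of that choice. Ndufb5, the member most like Ndufa6, was 21st in this order of all genes.

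Promoter windows of Ndufa6, of 3 of the members most like it and of Ndufs4, which had the highest serum change, are shown for comparison. They are RefSeq windows on GRCm38.p6, from 250 bases before to 50 bases after the annotated start, printed from 5′ to 3′ on the strand of the gene. Such windows were found for 36 of the 40 members, and not for Ndufa2, Ndufa4l2, Ndufb9 and Ndufs1. The windows lie at chr15:82354242-82354541 on the minus strand (Ndufa6, 65% G and C), chr4:40279372-40279671 on the minus strand (Ndufb6, 59.3%), chr3:32736813-32737112 on the plus strand (Ndufb5, 61%), chr6:11907401-11907700 on the minus strand (Ndufa4, 53%) and chr13:114388045-114388344 on the minus strand (Ndufs4, 45.3%). Capitals mark exact matches, on either strand, to short cores of motifs known from promoters of respiratory genes.
Ndufa6: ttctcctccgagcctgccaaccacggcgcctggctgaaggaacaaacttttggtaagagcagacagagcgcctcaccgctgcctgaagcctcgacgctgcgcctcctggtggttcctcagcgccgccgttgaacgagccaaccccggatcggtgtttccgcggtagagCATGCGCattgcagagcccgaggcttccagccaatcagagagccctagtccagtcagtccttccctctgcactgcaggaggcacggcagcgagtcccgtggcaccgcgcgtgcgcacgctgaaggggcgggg
Ndufb6: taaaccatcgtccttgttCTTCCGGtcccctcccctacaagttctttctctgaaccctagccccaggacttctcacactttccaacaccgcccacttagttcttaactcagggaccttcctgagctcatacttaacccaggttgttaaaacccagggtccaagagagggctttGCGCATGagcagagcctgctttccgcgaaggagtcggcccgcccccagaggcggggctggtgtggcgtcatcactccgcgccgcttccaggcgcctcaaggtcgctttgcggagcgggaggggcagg
Ndufb5: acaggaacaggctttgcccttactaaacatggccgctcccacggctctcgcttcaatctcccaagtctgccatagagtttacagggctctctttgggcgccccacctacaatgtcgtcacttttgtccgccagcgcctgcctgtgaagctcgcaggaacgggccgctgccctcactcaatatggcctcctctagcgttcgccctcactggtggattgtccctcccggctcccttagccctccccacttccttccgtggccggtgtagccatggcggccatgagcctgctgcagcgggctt
Ndufa4: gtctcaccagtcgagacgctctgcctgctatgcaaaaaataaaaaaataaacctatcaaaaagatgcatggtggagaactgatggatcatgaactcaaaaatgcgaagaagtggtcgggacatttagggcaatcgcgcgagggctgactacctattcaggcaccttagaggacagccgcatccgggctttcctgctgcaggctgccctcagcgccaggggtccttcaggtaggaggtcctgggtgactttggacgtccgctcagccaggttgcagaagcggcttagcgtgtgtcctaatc
Ndufs4: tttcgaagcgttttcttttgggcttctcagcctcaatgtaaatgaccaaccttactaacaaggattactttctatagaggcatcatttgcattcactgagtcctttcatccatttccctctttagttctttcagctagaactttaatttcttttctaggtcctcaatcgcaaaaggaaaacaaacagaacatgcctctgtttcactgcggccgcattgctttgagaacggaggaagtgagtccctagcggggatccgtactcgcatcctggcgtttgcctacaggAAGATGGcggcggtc

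The cores searched were 5, the NRF1 core CGCATGCG and its half-site CATGCGC (chosen after the windows were seen), the ETS core CCGGAAG, the YY1 core AAGATGG and the estrogen-related receptor core AAGGTCA, where the first pair, and ETS with YY1, can share letters. Ndufa6 and Ndufb6 each held the NRF1 half-site, which begins 82 and 77 bases before the start, and Ndufb6 also held the ETS core. Ndufs4 held the YY1 core behind its start, and the windows of Ndufb5 and Ndufa4 held none of the 5. Over 38 windows of members, the half-site was in 15.8% (3.91% of 32851 windows of all genes), the NRF1 core in 7.89% (1.87%), the ETS core in 13.2% (8.86%), the YY1 core in 18.4% (6.34%) and the estrogen-related receptor core in 7.89% (4.72%). No core was in all 4 windows of Ndufa6 and the members most like it.

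The flavin and the iron-sulfur clusters are carried by core subunits, though not by each of them. The 6 core subunits named next were not past the threshold. Ndufv1, which binds NADH, changed by -0.04 ± 0.029 (SE) and its neighbour Ndufv2 by -0.03 ± 0.026. Ndufs1 (N module), with several iron-sulfur clusters, was at -0.0027 ± 0.031, and Ndufs3 and Ndufs8 (Q module) were at -0.02 ± 0.022 and -0.03 ± 0.035. The 95% confidence intervals of these 5 changes all included 0. Ndufs7, which holds the last iron-sulfur cluster before ubiquinone, was at 0.05 ± 0.019 and higher in 8 of 9 runs (limma adjusted p = 0.174). It ran from 11.62 through 12.11 to 12.46 with carrier and from 11.89 through 12.04 to 12.41 with non-carrier serum, so that the ranges overlapped. Run E, which holds carrier array E3, was the only run where Ndufs7 was lower (-0.12). Without carrier array E3 and non-carrier array C2, Ndufs7 passed the threshold (0.06, limma adjusted p = 0.0208). That fit was chosen after seeing the data, and its calls over all genes are not given here. Without array E3 alone, 397 genes were called, Ndufs7 among them. Without array C2 alone, 1001 genes were called, the most for any single array left out, and Ndufs7 was not among them.

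Ndufs4 was the member with the highest change, 0.06 ± 0.025 (SE; limma adjusted p = 0.198), and 1 of 40 members to be higher in every run, as 0.653% of all genes were. Its log2 intensity ran from 10.07 through 10.33 to 10.64 with carrier and from 9.74 through 10.29 to 10.57 with non-carrier serum, and the groups overlapped. The differences by run went from 0.0056 in run C to 0.16 in HB9MNs, and in the parts of run C were 0.06 and -0.06. The other members with high values were Ndufaf4 (an assembly factor, 0.05 ± 0.039, adjusted p = 0.476), Ndufb9 (0.05 ± 0.032, adjusted p = 0.382) and Ndufb2 (distal membrane arm, 0.04 ± 0.093, adjusted p = 0.795). Ndufb2 was inconsistent, with differences of 0.40, 0.47 and 0.63 in motorneuron, HB9MNs and run A and below 0 in the other 6 runs.

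After Ndufa6, the lowest changes were those of Ndufb6, Ndufa4, Ndufa2 and Ndufa4l2, none past the threshold. Ndufb6 was at -0.13 ± 0.05 (SE; limma adjusted p = 0.141), with values from 9.17 through 10.04 to 10.60 with carrier and from 8.90 through 10.17 to 10.45 with non-carrier serum. It was lower with carrier serum in 8 of 9 runs, the exception being motorneuron (0.11), and the ranges overlapped. Ndufa4 was at -0.13 ± 0.047 (adjusted p = 0.119) and also lower in 8 of 9 runs, and ran from 8.46 through 9.23 to 9.69 with carrier and from 8.74 through 9.34 to 9.82 with non-carrier serum. Ndufa2, an N module subunit with a thioredoxin-like fold, was at -0.11 ± 0.041 (adjusted p = 0.125). It was higher in motorneuron (0.09) and HB9MNs (0.16) and lower in the other 7 runs, by as much as -0.31 in run E. Ndufa4l2 was at -0.10 ± 0.048 (adjusted p = 0.239).

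Ndufab1, the acyl carrier protein that binds Ndufa6 and Ndufb9, is among the genes that the study selected on part of these arrays, so its value is not independent of that choice. It was at -0.07 ± 0.031 (SE; limma adjusted p = 0.201), lower in 6 of 9 runs, and ran from 8.09 through 8.52 to 8.75 with carrier and from 8.44 through 8.58 to 8.88 with non-carrier serum. The difference was -0.27 in run E and 0.10 in the 10-week run. Of the acyl carrier protein and the LYR subunits it binds, Ndufab1 and Ndufa6 were thus below 0 and Ndufb9 above.

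By run, the members divided. In motorneuron and HB9MNs, 32 and 27 of the 40 members were higher with carrier serum, with medians of 0.13 and 0.07. In the other 7 runs, between 23 and 33 members were lower, with medians from -0.11 in run E to -0.013 in run C. The median over all genes lay between -0.03 and 0.04 in each run. Single arrays stood out in motorneuron and run E. Averaged over the members and relative to the run mean, non-carrier array 1 of motorneuron was at -0.26. The other arrays of that run lay between -0.04 and 0.11. Carrier array E3 was at -0.26 by the same measure, and the other arrays of run E lay between 0.011 and 0.088. HB9MNs had only 2 arrays per serum. No member passed the interaction of serum and run (lowest limma adjusted p 0.448; 0.127% of all genes passed), and 3 did at an unadjusted p of 0.05, Ndufb11, Ndufv2 and Ndufa12 (7.94% of all genes), so a difference between runs was not shown for any single member.

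**Figure D4:**
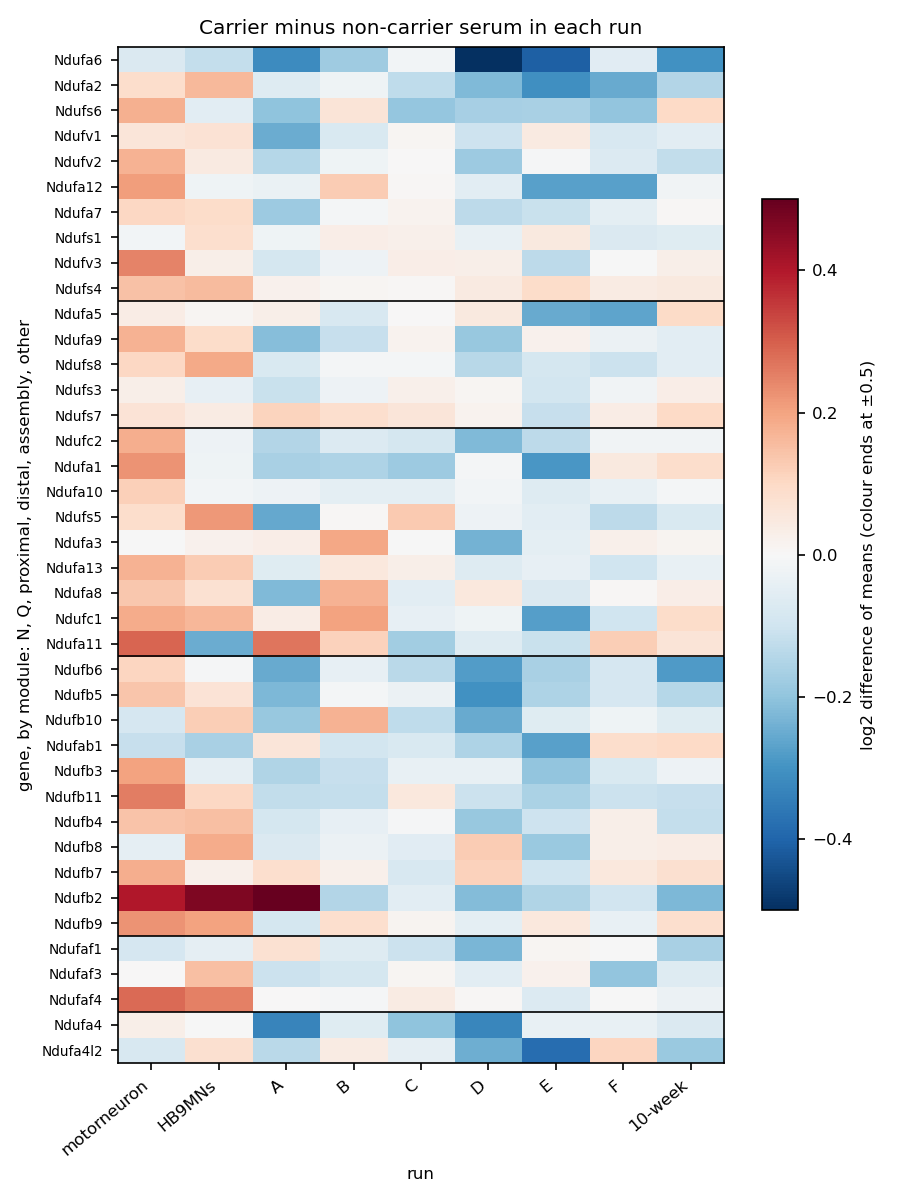
Carrier minus non-carrier difference of mean log2 intensity (colour, ending at ±0.5) for each member (y axis, by module) and run (x axis). Motorneuron and HB9MNs are mostly red, with 32 and 27 of 40 members higher, and the other runs mostly blue. With run C taken whole, Ndufa6 is the 1 member below 0 in each run and Ndufs4 the 1 member above 0.

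The run accounted for much of the variance. Its share had a median of 63.5% over the members and 62.5% over all genes, and exceeded 50% in 29 of 40 members. It was highest for Ndufv3 (an N module subunit, 90.1%), whose run means went from 9.18 in run E to 10.26 in motorneuron, and lowest for Ndufab1 (19.4%), with means from 8.46 to 8.66. Ndufa6 had a share of 31.0%. The widest range of run means was that of Ndufaf1, an early assembly factor, from 7.38 in motorneuron to 9.39 in run E, against a serum change of -0.07 ± 0.053 (SE). Members did not shift together between runs, since motorneuron held the lowest mean for Ndufaf1 and Ndufb6 and the highest for Ndufv3 and Ndufa7.

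**Figure D5:**
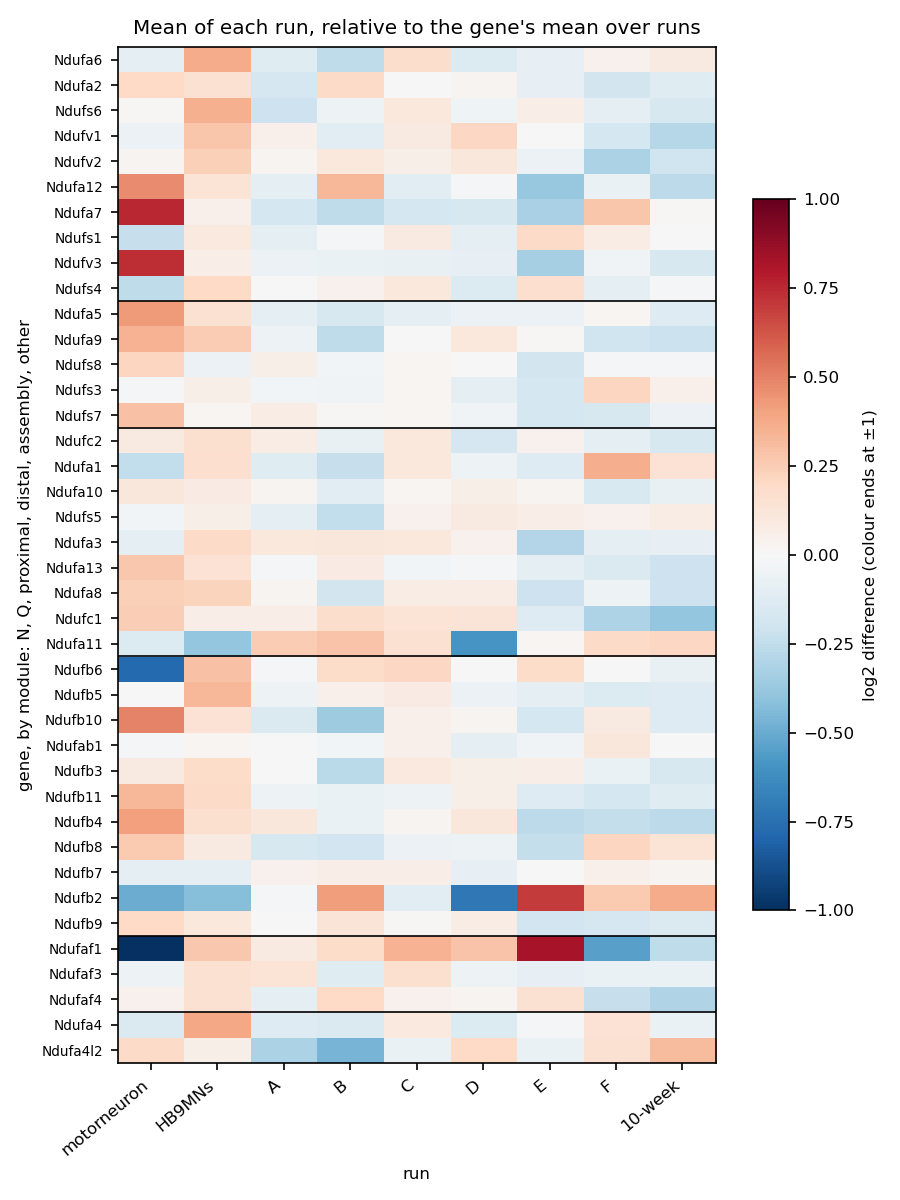
Mean log2 intensity of each run minus the gene's mean over the 9 runs (colour, ending at ±1) for each member (y axis, by module) and run (x axis). Motorneuron stands apart in both directions, low for Ndufaf1 (run mean 7.38) and high for Ndufv3 (10.26).

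With the effects of run and serum both removed, the 780 pairs of members had a median r of 0.26 over 59 arrays, and 16.7% of the pairs were above 0.5 while 18.1% were below 0. The highest was 0.88 for Ndufb6 with Ndufa4 and the lowest -0.57 for Ndufb4, of the distal membrane arm, with Ndufaf1. The members thus did not vary as a single block within runs.

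The rest of the respiratory chain gave no called gene. Of 56 subunits and assembly factors of complexes II to V, 35 were lower (7629 of 19613 over all genes), with a median of -0.02. At an unadjusted p of 0.05, 8 were lower and 0 higher, against 8.68% and 12.0% of all genes. The lowest were Cox6b2, a testis-type complex IV subunit (-0.15 ± 0.059 SE, limma adjusted p = 0.134), and Sdhd, a membrane anchor of complex II (-0.12 ± 0.041, adjusted p = 0.0991). Among 10 complex I assembly factors that carry other symbols, 7 were lower, 2 of them at an unadjusted p of 0.05 (8.68% of all genes), and none passed, the nearest being Ecsit (-0.08 ± 0.025, adjusted p = 0.0546) and Nubpl (-0.09 ± 0.032, adjusted p = 0.108). None of 6 further LYR proteins and none of 9 regulators of mitochondrial genes, such as Ppargc1a, Nrf1 and Tfam, passed the test, and at an unadjusted p of 0.05 these lists held 1 lower and 1 higher gene (8.68% and 12.0% of all genes).

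The count of called members moved with the terms of the fit. Without the run as a block, 0 members passed, though the change of Ndufa6 was about as large (-0.22, limma adjusted p = 0.995). With 4 motor neuron genes (Olig2, Mnx1, Isl1 and Lhx3) in place of the run, 0 passed and Ndufa6 was at -0.21 (adjusted p = 0.160). With the log2 values of those genes added beside the run, 8 fell and 1 rose, while calls over all genes went from 457 to 6126. The 8 were Ndufa6, Ndufb6, Ndufa4, Ndufa2, Ndufb5, Ndufaf1, Ndufs1 and Ndufv2, and the 1 was Ndufs7. The part of motor neuron content in these changes was not tested.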

How the data were processed

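Per the labels and the study's methods, the authors ran RMA on the exon arrays, set a gene's value to the mean of its exons, and left out arrays that Grubbs' test had called before all others were normalized as one. The deposited table holds linear intensities of 19613 genes under their symbols. The scale on which exons were averaged and the genome build are not given in the sources used here. RMA compresses low intensities, and a mean over exons cannot tell isoforms apart. Sera were taken from the labels and runs from the titles.

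From these, log2 values were taken with a pseudocount of 0 and no filter. limma 3.58.1 (lmFit, eBayes; R 4.3.3) gave the change with serum, with the run as a block, by a two-sided test; p-values were adjusted by Benjamini-Hochberg across the whole table, with 0.05 as the threshold. One item is not reported here. This step was also run on simulated data with independent noise and the same SD for both sera. That setting does not cover the wider spread of Ndufa6 with carrier serum. The number of arrays limits the precision. Named genes were the called members, Ndufa6, the 5 lowest and 5 highest changes, Ndufab1, Ndufb9, the core subunits, the highest and lowest run share and the 5 genes most like Ndufa6; other names were chosen after their values were seen. The members and lists were chosen with earlier results of these data known. Promoter windows are those of RefSeq (GRCm38.p6); figures were drawn with matplotlib 3.10.9. Alternatives concerned the block, 4 motor neuron genes as covariates, normalization, dim genes, a pseudocount of 16, the variance model, array weights, the replicate numbers, and each run or array left out; those with the mean correlation as a covariate, without the arrays called by Grubbs' test, and without each array were chosen after seeing the data.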

Additional observations from a re-analysis of the deposited data

Results flagged for a closer look

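Within runs, 160 groups of 4 to 6 arrays of 1 member were tested for a highest or lowest array far from the others by Dixon's criterion, and 7 stood apart; chance flags about 1 in 20 groups. In run C, non-carrier array C2, which Grubbs' test also called, was highest for Ndufa3 (10.07, the next 9.98) and lowest for Ndufs1 (8.56, the next 8.76). Carrier array C1 of that run was lowest for Ndufb9 (9.49, the next 9.83) and Ndufc1 (9.57, the next 10.01), and non-carrier array C3 was highest for Ndufa5 (8.04, the next 7.88). In run D, non-carrier array D4 was lowest for Ndufa11 (9.57, the next 9.68) and non-carrier array D1 highest for Ndufs7 (12.09, the next 12.02). Groups of 3 arrays or fewer, which include the lowest Ndufa6 arrays of run A, run D and run E, were not tested.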

How the results depend on the processing

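Ndufa6 was lower under every alternative run, but its call depended on the fit. The number of members lower past the threshold, 1, was 0 without the block, 0 with 4 motor neuron genes in place of the run, 8 with those genes beside the run and 5 with array weights, and between 0 and 2 when each run or array was left out. The number higher, 0, was 1 with the motor neuron genes beside the run, 1 with array weights, 1 without the arrays called by Grubbs' test, and between 0 and 1 when each run or array was left out; the member was Ndufs7. Calls over all genes moved as well. With single arrays left out, they ran from 328 (without carrier array D3) to 1001 (without non-carrier array C2). A count of members can therefore move with the calls of the whole table. Calls over all genes are not given here for array weights, for runs left out or without the arrays called by Grubbs' test. The cause of these shifts was not tested. The other settings (parted run C, centring, quantile normalization, dim genes left out, pseudocount of 16, trended variance, mean correlation) left the call as it was. Quantile normalization moved the median of all genes from 0.016 to 0.0015.

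The call of Ndufa6 was not reversed. Without counting the arrays left out singly, 15 members changed sign under some alternative, none of them called in the reported fit. Ndufs1 alone of them was called under any of these alternatives. They were Ndufa3, Ndufa7, Ndufa8, Ndufa11, Ndufa13, Ndufaf3, Ndufb8, Ndufc1, Ndufs5 and the 6 whose values follow. Ndufs1 was at -0.11 (limma adjusted p = 0.0024) with the motor neuron genes beside the run, 0.0112 without the block, 0.0107 after quantile normalization, 0.0115 with the replicate block, and between -0.0092 and 0.0053 with each run left out. Ndufv3 was at -0.0066 without the block, -0.00021 with array weights, and between -0.0123 and 0.0352 with each run left out. Ndufb2 was between -0.0222 and 0.0799 with each run left out. Ndufaf4 was at -0.0290 with the motor neuron genes beside the run and -0.0084 with them in its place, where Ndufs3 was at 0.0222 and Ndufs8 at 0.0140. The cause was not tested.

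Replicate numbers or letters shared by both sera gave 8 pairs in 3 runs. The deviations of paired arrays correlated at -0.13 to 0.33, and 1 pair was above 0.1. In HB9MNs, with 2 arrays per serum, both pairs must give the same r (0.06). Groups this small cannot decide on pairing, and the reported fit did not pair the arrays. With the replicate block, 1 member fell and 0 rose, as without it, and Ndufa6 was at -0.23 (limma adjusted p = 0.0372).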
